A study of Mus musculus with 10 samples.

Results

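Aminoacyl-tRNA synthetases are the enzymes that join each amino acid to its transfer RNA (tRNA), the step that fixes the genetic code before translation starts. The 40 genes described here are the synthetase genes of the mouse host cell together with the scaffold genes of their complex. They were chosen by gene symbol alone, and all 40 symbols were among the 11617 genes of the deposited table. Of these, 21 were classed as genes of cytosolic enzymes and 16 as genes of enzymes that work in mitochondria. The other 3 (Aimp1, Aimp2, Eef1e1) encode proteins that hold cytosolic enzymes together. Each gene was given a single class, also where its product may work in both places.

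The cells were macrophages raised from the bone marrow of C57BL/6 mice with GM-CSF (50 ng/ml), a cytokine that drives myeloid growth, in medium that held 10% serum. The labels give the age of the mice as 6 weeks in one field and 7 weeks in another. The 5 groups of 2 libraries each were untreated control cells, cells given AmTARS for 1 h or 3 h, and cells given Pam3CSK4 for 1 h or 3 h. AmTARS is, by what is known of the study, the enzyme that charges threonyl tRNA in Akkermansia muciniphila, a bacterium of the gut, and its dose is written in the labels as 0.5 mm. Pam3CSK4, a synthetic lipopeptide that activates Toll-like receptor TLR2, was used at 10 ng/ml. The series title names both as ligands of TLR2, so the comparisons ask how macrophages set their own synthetase transcripts while they respond to a bacterial enzyme of the same family or to a lipopeptide. The untreated libraries carry no time label, so an effect of time in the dish cannot be told apart from an effect of a ligand. The labels do not say whether both libraries of a group are separate cultures or mice, and the p-values then measure only the spread between these libraries, which may be technical.

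Cytosolic synthetases are needed by every cell that makes protein. Enzymes for several amino acids sit in the multi-synthetase complex, which the 3 scaffold proteins assemble, and the mitochondrial enzymes are encoded in the nucleus and imported to charge the tRNAs of mitochondria. When tRNAs stay uncharged, the kinase GCN2 phosphorylates the initiation factor eIF2, the transcription factor ATF4 is translated, and ATF4 is known to raise many cytosolic synthetase genes. Macrophages that meet a TLR ligand are known to make large amounts of cytokine mRNA within hours. Some synthetases, those for tyrosine and tryptophan among them, are also known to act as signals outside the cell.

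The libraries held 27398791 to 37559810 reads in the listed genes. All 8 macrophage markers looked for were in the table, with a summed level of 49274 to 50987 CPM (reads scaled by library size, the deposited unit) in the control libraries. Of 9 neutrophil markers 8 were in the table, and their sum was 1629 to 1711 CPM in control and 2136 to 2752 CPM in treated libraries. None of 4 erythroid markers, 1 of 5 T cell markers, 1 of 4 B cell markers and 2 of 8 dendritic cell markers were listed, whereas the 4 fibroblast markers were, at 1211 to 1473 CPM in sum. The part of other cells in the results was not tested. The response genes Tnf and Cxcl2, which encode secreted inflammatory signals, rose in all 4 treated groups: Tnf was at 23.6 and 23.7 CPM in control, at 64.0 and 71.7 CPM after 1 h of AmTARS and at 165 CPM in both libraries after 1 h of Pam3CSK4. The libraries of Pam3CSK4 at 3 h differed from each other more than those of the other groups, with a chi-square of 7.61 per degree of freedom against 3.62 to 4.69. In bulk RNA, a smaller share of cells and less RNA per cell cannot be told apart.

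All 40 genes were detected in every library, at levels that differed between the classes. Sequence shared with other genes, given below for single genes, leaves the counting of some uncertain. Their mean over the 10 libraries ran from 2.81 CPM (Mars2) to 714 CPM (Lars2) with a median of 36.5 CPM, against 23.8 CPM over all 11407 genes tested. The lowest read count of any of them in any library was 70. By class, the median of these means was 46.8 CPM for the cytosolic, 10.9 CPM for the mitochondrial and 12.0 CPM for the scaffold genes. To compare genes, levels were divided by transcript length. In the control libraries the cytosolic genes had a median level of 18.97 CPM per kb, the mitochondrial genes 4.83 CPM per kb and the scaffold genes 9.74 CPM per kb.

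Nars, the asparaginyl enzyme, stood highest among the cytosolic genes at 68.6 CPM per kb in control cells. Rars (arginyl) followed at 38.2 CPM per kb and Qars (glutaminyl) at 37.5 CPM per kb, levels whose control libraries overlapped. Yars (tyrosyl) was the lowest of the standard cytosolic enzymes at 8.89 CPM per kb. Tarsl2, which encodes a second threonyl enzyme, lay far below at 1.19 CPM per kb. The classic cytosolic threonyl gene Tars was at 11.4 CPM per kb and its mitochondrial counterpart Tars2 at 9.45 CPM per kb.

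Among the mitochondrial genes, Lars2 (leucyl) stood apart at 136 CPM per kb, above every cytosolic gene as well. The next mitochondrial gene, Iars2 (isoleucyl), was at 10.7 CPM per kb and Mars2 (methionyl) closed the order at 0.294 CPM per kb. Of the scaffold genes, Aimp1 reached 27.7 CPM per kb, Aimp2 9.74 CPM per kb and Eef1e1 3.21 CPM per kb.

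**Figure D1:**
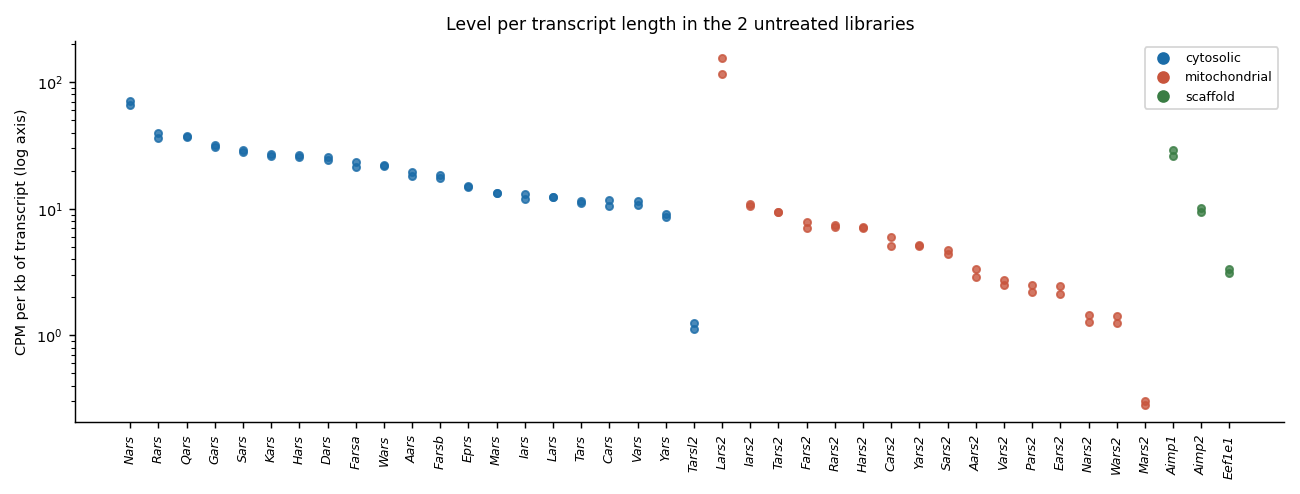
Level of each of the 40 genes in the 2 untreated libraries (points) in CPM per kb of transcript on a log axis, ordered by level within the cytosolic, mitochondrial and scaffold genes. Nars leads the cytosolic genes at 68.6 CPM per kb, Tarsl2 is at 1.19, and Lars2 at 136 stands above all others.

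Most synthetase genes changed little under either ligand. The summed level of the 21 cytosolic genes was 1309 and 1312 CPM in the control libraries and between 1287 and 1323 CPM in the treated ones, so the treated range enclosed the control values. The 16 mitochondrial genes summed to 664 and 812 CPM in control and to 746 to 1050 CPM in treated libraries, a sum of which Lars2 made up the larger share. The 3 scaffold genes summed to 48.3 and 53.5 CPM in control and to 52.9 to 60.7 CPM in treated libraries. Within each gene, the highest library was a median of 1.21 times the lowest, from 1.07 times for Nars to 1.88 times for Lars2. In 39 of the 40 genes no group mean moved by 0.5 or more on the log2 scale against control, and the exception was Lars2. That is 2.5% of these genes with such a move, beside 12.7% of all genes tested. The deposited scale, log2(CPM + 1), understates the change of low genes, and with voom on the recovered reads Tarsl2 also reached this size, at -0.54 for Pam3CSK4 at 3 h.

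A change is counted here where limma gave a Benjamini-Hochberg adjusted p below 0.05 over all genes tested. Against control, AmTARS changed 7 of 40 genes at 1 h, with 3 higher and 4 lower, where 38.7% of all genes tested changed (18.9% higher, 19.8% lower). At 3 h it changed 6 of 40, with 3 higher and 3 lower, beside 36.7% of all genes (18.8% higher, 17.9% lower). Pam3CSK4 changed 11 of 40 at 1 h, with 6 higher and 5 lower, beside 48.7% (23.9% higher, 24.8% lower). At 3 h it changed 13 of 40, with 4 higher and 9 lower, beside 48.9% (24.7% higher, 24.2% lower). As shares these are 17.5%, 15%, 27.5% and 32.5%, each below the share of all genes. The median size of change, regardless of direction, was 0.11, 0.08, 0.10 and 0.10 on the log2 scale, beside 0.15, 0.14, 0.18 and 0.18 over all genes tested. Both treated libraries lay on the same side of both control libraries in 26, 22, 28 and 21 of the 40 genes, beside 70.4%, 71.3%, 75.8% and 75.6% of all genes.

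These 4 comparisons share the control libraries, and each is given by its own values. In all, 21 genes changed in none of them, 19 in at least 1 and 3 in each of them (Eprs, Hars and Iars). For 33 of 40 genes (82.5%) the 95% intervals of all 4 log2 fold changes lay within 0.5 of no change, which held for 64.2% of all genes tested. Within 0.25 of no change lay 12 of 40 (30%), beside 10.9% of all genes. The genes outside the wider limit were Iars, Tarsl2, Cars2, Lars2, Mars2, Wars2 and Eef1e1.

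**Figure D2:**
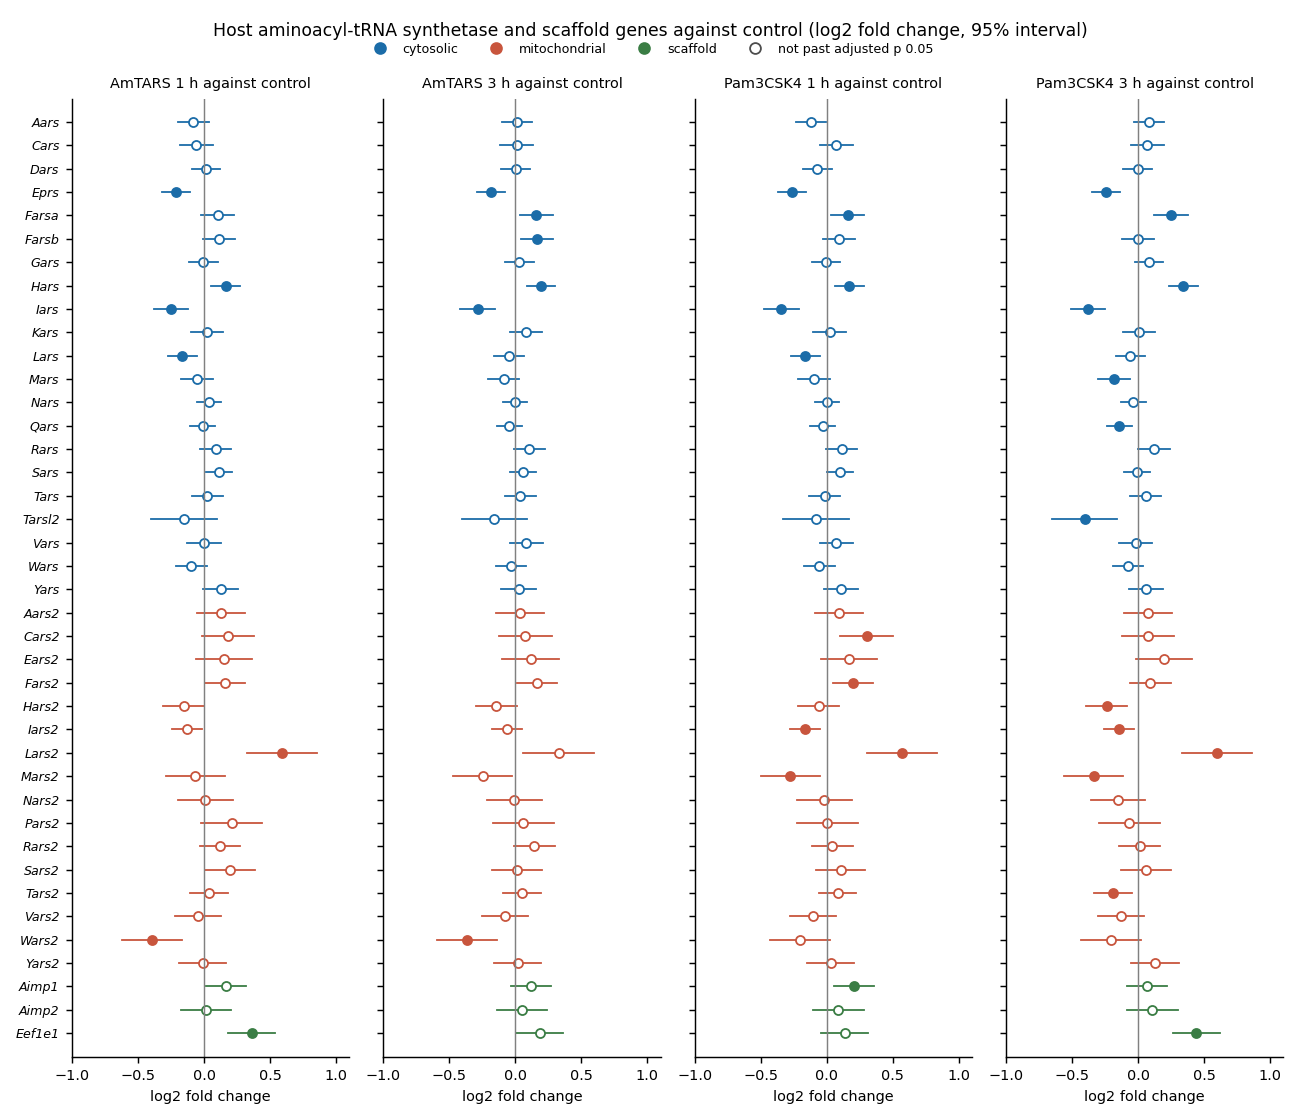
Log2 fold change against control (x axis) with its 95% interval for each of the 40 genes in the 4 treated groups, blue for cytosolic, red for mitochondrial and green for scaffold genes. Filled points passed an adjusted p of 0.05. Most points lie within 0.25 of the line at 0, and Lars2 at 0.57 to 0.60 in 3 of the 4 panels lies farthest out.

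Single libraries weighed on these counts. Without control replicate 2, the count fell to 2 for AmTARS at 1 h, 1 for AmTARS at 3 h and 5 for Pam3CSK4 at 1 h. Without Pam3CSK4 3 h replicate 3 it fell to 6 for Pam3CSK4 at 3 h, and without control replicate 3 to 7. For Pam3CSK4 at 3 h, the calls of Hars, Iars, Eprs, Lars2 and Eef1e1 stood with any 1 library left out. Other calls that were lost without 1 library are given with that library below.

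Transcript length moved with the fold changes across the whole table. Over 11014 annotated genes the Spearman correlation between length and fold change came to -0.73 for AmTARS at 1 h, -0.66 for AmTARS at 3 h, -0.73 for Pam3CSK4 at 1 h and -0.51 for Pam3CSK4 at 3 h. Over the 40 genes it was -0.53, -0.56, -0.62 and -0.50, points that share the same libraries. Short transcripts were therefore the higher ones in treated cells and long transcripts the lower ones, also among the synthetases. The genes had a median transcript length of 2773 bases, beside 2993 bases over all annotated genes tested.

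After the trend with length and GC content was removed from each library, 4 of 40 genes differed from control for AmTARS at 1 h (3 higher, 1 lower, beside 14.4% of all genes, 8.18% higher and 6.17% lower) and 3 for AmTARS at 3 h (2 higher, 1 lower, beside 18.6%, 10.9% higher and 7.74% lower). For Pam3CSK4 at 1 h the count was 4 (2 higher, 2 lower, beside 22.9%, 11.6% higher and 11.3% lower). For Pam3CSK4 at 3 h it was 12 (5 higher, 7 lower, beside 42%, 20.7% higher and 21.3% lower). Calls shared by both fits, in the same direction, were Lars2 and Eef1e1 for AmTARS at 1 h, Hars and Iars for AmTARS at 3 h, and Iars and Lars2 for Pam3CSK4 at 1 h. For Pam3CSK4 at 3 h they were Hars, Iars, Mars, Qars, Tarsl2, Hars2, Lars2, Tars2 and Eef1e1.

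**Figure D3:**
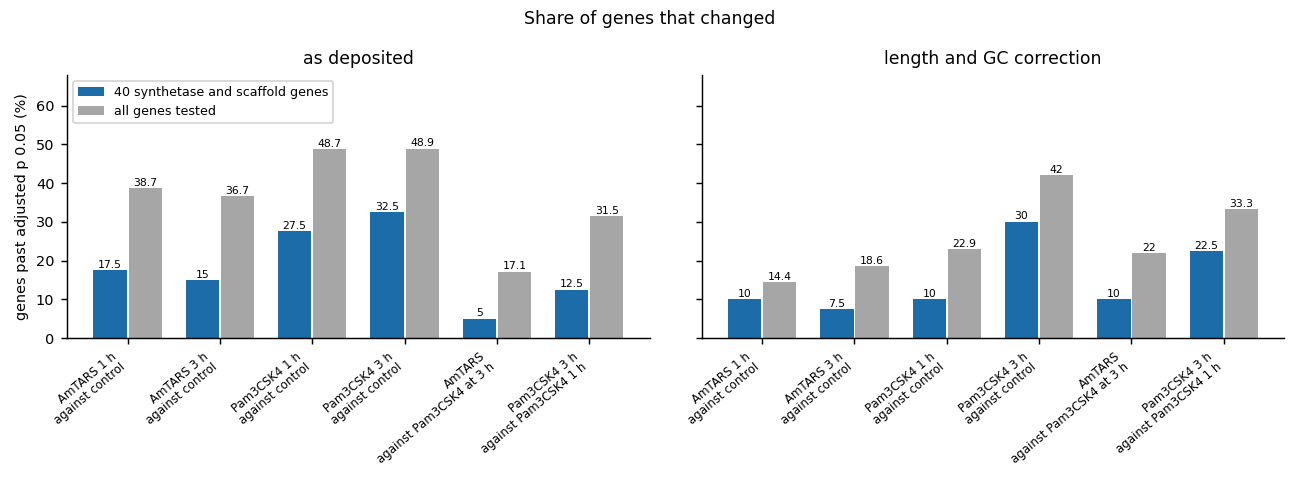
Share of genes past an adjusted p of 0.05 (%) among the 40 synthetase and scaffold genes (blue) and among all genes tested (grey), with the deposited values on the left and the corrected values on the right, for 6 comparisons. The blue bar is the lower one in each pair, for example 17.5% beside 38.7% for AmTARS at 1 h.

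**Figure D4:**
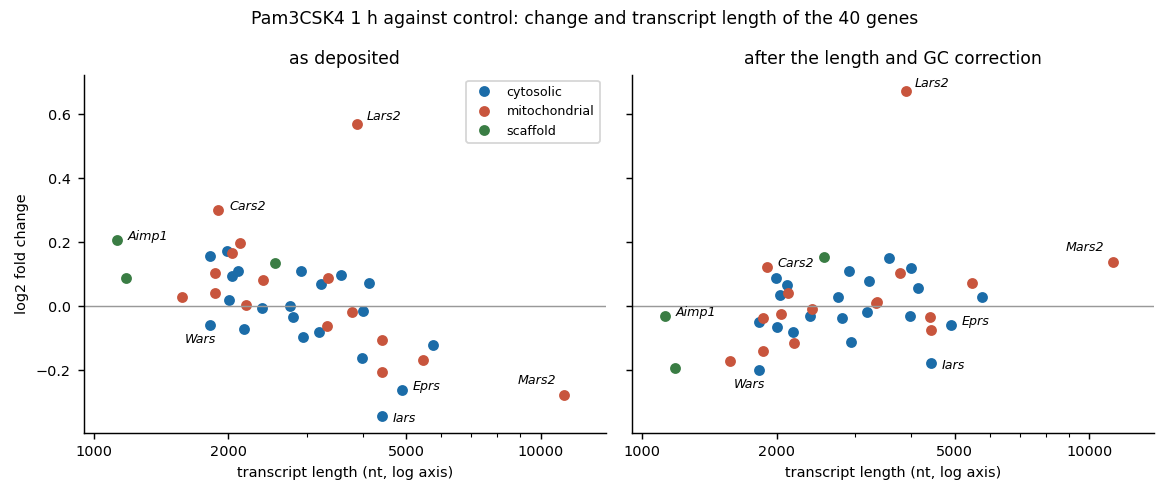
Log2 fold change of Pam3CSK4 at 1 h against control (y axis) and transcript length in nucleotides (log x axis) of the 40 genes, from the deposited values on the left and the corrected values on the right. On the left the points fall with length (Spearman correlation -0.62), Aimp1 being at 0.21 and Mars2 at -0.28, and on the right Lars2 keeps its place at 0.67.

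The threonyl genes are the host counterparts of AmTARS. Gene positions here and below are those of GENCODE M21 on build GRCm38. Tars (chr15:11382301-11399665, minus strand) was at 46.2 and 44.8 CPM in control, at 46.5 and 46.0 CPM after 1 h of AmTARS and at 46.9 and 46.5 CPM after 3 h of AmTARS. It was at 43.6 and 46.4 CPM after 1 h and at 45.9 and 48.9 CPM after 3 h of Pam3CSK4. These libraries overlapped control in 3 of the 4 treated groups, and in the group of AmTARS at 3 h both stood just above it. The log2 fold changes of Tars were 0.02, 0.04, -0.02 and 0.06 in this order (SE 0.06, adjusted p of 0.415 to 0.841). The 95% interval for AmTARS at 3 h ran from -0.08 to 0.15. After the correction Tars passed for Pam3CSK4 at 3 h alone (log2 fold change 0.15, adjusted p = 0.0226).

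Tars2 (chr3:95739976-95760206, minus strand), the mitochondrial threonyl enzyme, was at 22.6 and 22.7 CPM in control, at 23.0 to 24.0 CPM in the AmTARS libraries and at 23.9 and 24.2 CPM after 1 h of Pam3CSK4. After 3 h of Pam3CSK4 it was at 21.0 and 18.6 CPM, below every other library. It fell by 0.19 on the log2 scale against control in that group (SE 0.07, adjusted p = 0.025), and by 0.25 after the correction (adjusted p = 0.00288). The call was lost without control replicate 2 (adjusted p = 0.0907), control replicate 3 (0.0908) or Pam3CSK4 3 h replicate 3 (0.292).

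Tarsl2 (chr7:65644898-65692091, plus strand), the second threonyl gene, was at 3.599 and 3.99 CPM in control and at 3.15 to 3.43 CPM in the AmTARS libraries. After Pam3CSK4 it was at 3.19 and 3.90 CPM at 1 h and at 3.00 and 2.28 CPM at 3 h. The pair at 3 h was the lowest of the 10 libraries, and its lowest value rested on 82 reads. Against control it fell by 0.41 there (SE 0.12, adjusted p = 0.00819), and by 0.37 after the correction (adjusted p = 0.0129). Without control replicate 3 the adjusted p was 0.0723, and without Pam3CSK4 3 h replicate 3 it was 0.15. For AmTARS the log2 fold changes were -0.15 and -0.16, with adjusted p of 0.333 and 0.31. Tarsl2 shares 122 bases of its transcript with Tm2d3 on the same strand.

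**Figure D5:**
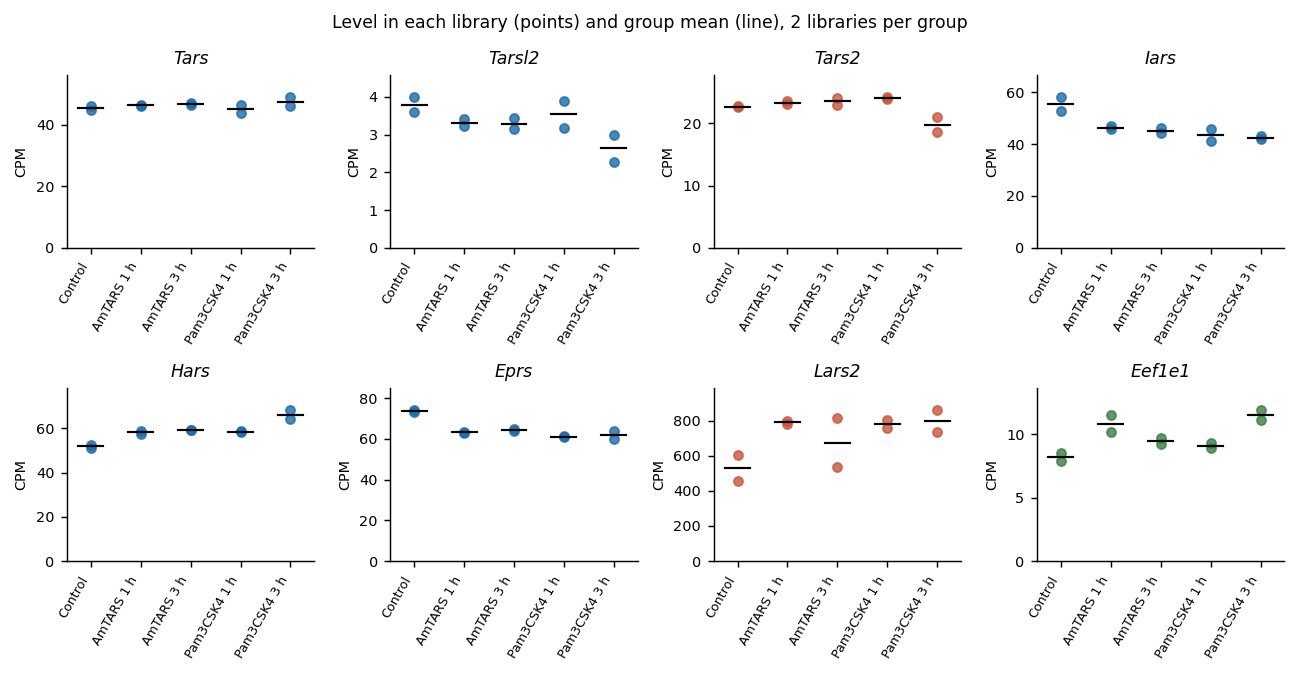
Level in CPM of 8 genes in each library (points) with the group mean (line) for control, AmTARS at 1 h and 3 h, and Pam3CSK4 at 1 h and 3 h. Tars stays between 43.6 and 48.9 CPM, Iars and Eprs are lower in every treated library than in both control libraries, Hars is higher, and Lars2 varies from 456 to 857 CPM.

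Enzymes of the multi-synthetase complex were, where they changed, lower. As textbooks list it, the complex holds the enzymes for aspartate, glutamate with proline, isoleucine, lysine, leucine, methionine, glutamine and arginine (Dars, Eprs, Iars, Kars, Lars, Mars, Qars and Rars), a grouping that was written down after the values had been seen. Of these 8 genes none rose in any treated group, and 3, 2, 3 and 4 fell for AmTARS at 1 h and 3 h and Pam3CSK4 at 1 h and 3 h. Of the other 13 cytosolic genes 1, 3, 2 and 2 rose, and 0, 0, 0 and 1 fell. Over all genes tested, 18.9%, 18.8%, 23.9% and 24.7% were higher and 19.8%, 17.9%, 24.8% and 24.2% lower. After the correction the complex enzymes counted 0, 1, 1 and 3 lower and none higher, and the other 13 genes 1, 1, 1 and 3 higher and 1, 0, 1 and 2 lower. The difference between these sets was not tested. The 8 had a median transcript length of 2870 bases and the other 13 of 2909 bases.

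Iars (chr13:49682100-49734267, plus strand), the isoleucyl enzyme, carried the clearest fall. It was at 58.2 and 52.9 CPM in control, at 46.9 and 46.0 CPM after 1 h and at 44.3 and 46.3 CPM after 3 h of AmTARS. After Pam3CSK4 it was at 41.3 and 45.9 CPM at 1 h and at 43.1 and 41.8 CPM at 3 h. Every treated library lay below both control libraries. The log2 fold changes were -0.25 (adjusted p = 0.00358), -0.29 (0.00152), -0.34 (0.000161) and -0.38 (5.1e-05), each with an SE of 0.06. After the correction they were -0.11 (adjusted p = 0.182), -0.17 (0.0254), -0.18 (0.0161) and -0.25 (0.000423), so the call for AmTARS at 1 h was lost and the other 3 stood. Without control replicate 2, the adjusted p for AmTARS at 1 h was 0.0838. The 1161 bases that the Iars transcript shares with the gene model Gm4849, which was not in the table, leave its counting uncertain.

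Eprs (chr1:185363044-185428360, plus strand), the enzyme for glutamate and proline, was at 74.0 and 73.2 CPM in control and at 60.1 to 64.9 CPM in the 8 treated libraries, with no overlap. Its log2 fold changes were -0.21 (adjusted p = 0.00261), -0.19 (0.0068), -0.26 (0.000284) and -0.25 (0.00047), each with an SE of 0.05. Its transcript is long, at 4906 bases, and after the correction the values were -0.04, -0.04, -0.06 and -0.10, none past the threshold (adjusted p of 0.0615 to 0.642). Without control replicate 2, the adjusted p for AmTARS at 3 h was 0.0576.

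Lars, the cytosolic leucyl enzyme, was at 49.5 and 49.2 CPM in control and fell at 1 h, to 42.8 and 45.1 CPM with AmTARS and to 43.5 and 44.5 CPM with Pam3CSK4. The log2 fold changes were both -0.16 (SE 0.05, adjusted p of 0.0199 and 0.0171). At 3 h the libraries were at 46.9 to 47.7 CPM, still below control but with no call (adjusted p of 0.511 and 0.374). After the correction no value passed. Without control replicate 2 or 3 the adjusted p at 1 h was 0.1 and 0.0721 for AmTARS, and 0.082 and 0.0623 for Pam3CSK4. It was 0.163 without AmTARS 1 h replicate 2 and 0.0974 without Pam3CSK4 1 h replicate 1.

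Mars (methionyl) and Qars (glutaminyl) fell with Pam3CSK4 at 3 h. Mars went from 38.9 and 38.8 CPM to 33.1 and 35.2 CPM, a log2 fold change of -0.18 (SE 0.06, adjusted p = 0.0124). Qars went from 104 and 106 CPM to 96.2 and 94.0 CPM, a log2 fold change of -0.14 (SE 0.05, adjusted p = 0.014). Neither pair overlapped control, and both calls stood after the correction, at -0.18 (adjusted p = 0.00852) and -0.13 (0.00678). Mars lost its call without control replicate 2 (adjusted p = 0.0622), control replicate 3 (0.0537) or Pam3CSK4 3 h replicate 2 (0.0905). Qars lost its call without control replicate 3 (0.0908) or Pam3CSK4 3 h replicate 3 (0.0743). Dars, Kars and Rars passed in no group. Kars (0.01 to 0.08) and Rars (0.09 to 0.12) had all 4 values above 0.

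Hars, the histidyl enzyme that works outside the complex, rose in every treated group. It was at 51.1 and 52.7 CPM in control, at 58.9 and 57.5 CPM after 1 h and at 59.4 and 59.5 CPM after 3 h of AmTARS. After Pam3CSK4 it was at 58.3 and 58.9 CPM at 1 h and at 64.1 and 68.1 CPM at 3 h. All treated libraries stood above control, and those of Pam3CSK4 at 3 h stood highest. The log2 fold changes were 0.16 (adjusted p = 0.0181), 0.19 (0.00694), 0.17 (0.0101) and 0.34 (1.97e-05), each with an SE of 0.05.

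After the correction Hars kept its calls at 3 h, at 0.13 for AmTARS (adjusted p = 0.0434) and 0.28 for Pam3CSK4 (2.53e-05), and lost those at 1 h (adjusted p of 0.145 and 0.163). Without control replicate 2 the adjusted p was 0.129 for AmTARS at 1 h, 0.0728 for AmTARS at 3 h and 0.0837 for Pam3CSK4 at 1 h. It was 0.111 for AmTARS at 1 h without its replicate 2, and 0.0529 for AmTARS at 3 h without its replicate 1. Hars overlaps its mitochondrial neighbour Hars2 head to head, with 195 transcript bases on opposite strands. Hars2 was at 23.5 and 24.0 CPM in control and at 20.3 and 19.6 CPM after 3 h of Pam3CSK4, where it fell by 0.24 (SE 0.07, adjusted p = 0.0119; 0.19 after the correction, adjusted p = 0.0263). That call was lost without control replicate 3 (adjusted p = 0.0654) or Pam3CSK4 3 h replicate 3 (0.0732). In this group the 2 neighbours thus passed in opposite directions.

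The phenylalanyl enzyme is built from an alpha chain (Farsa) and a beta chain (Farsb). Farsa was at 42.4 and 39.3 CPM in control and at 43.9 to 51.3 CPM in the treated libraries, all above control. It passed for AmTARS at 3 h (log2 fold change 0.16, adjusted p = 0.046) and for Pam3CSK4 at 1 h (0.16, 0.0369) and 3 h (0.25, 0.00203), each with an SE of 0.06. Farsb was at 35.3 and 37.5 CPM in control, at 42.3 and 39.8 CPM after 3 h of AmTARS, where it passed at 0.17 (SE 0.06, adjusted p = 0.0302), and at 36.2 and 36.5 CPM after 3 h of Pam3CSK4, within the control range.

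None of these calls stood after the correction (adjusted p of 0.115 for Farsb at 3 h of AmTARS, and of 0.11 to 0.901 for Farsa), and the value of Farsa for Pam3CSK4 at 1 h changed sign, to -0.05. Without 1 library at a time, Farsa for AmTARS at 3 h lost its call in each of 4 cases, up to an adjusted p of 0.311 without control replicate 3. For Pam3CSK4 at 1 h Farsa lost it without control replicate 3 (0.279) or either treated library (0.114 and 0.094), and at 3 h without Pam3CSK4 3 h replicate 3 (0.0507). Farsb lost its call without AmTARS 3 h replicate 1 (0.257) or control replicate 2 (0.235). Farsb shares 250 transcript bases with Sgpp2 on the opposite strand.

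The other cytosolic enzymes passed in no group as deposited. Their values ranged from -0.12 (Aars, alanyl, Pam3CSK4 at 1 h) to 0.12 (Yars, AmTARS at 1 h). Sars (seryl) and Wars (tryptophanyl) passed only after the correction, in opposite directions. Sars was at 0.16 (adjusted p = 0.00627) for AmTARS at 1 h and at 0.15 (0.00658) for Pam3CSK4 at 1 h. Wars was at -0.20 (0.00634) and -0.20 (0.00495) in these groups and at -0.18 (0.00554) for Pam3CSK4 at 3 h. In CPM, Wars was at 40.4 and 39.9 in control and at 36.9 to 39.6 in the treated libraries, all below control. Aars passed after the correction for Pam3CSK4 at 3 h, at 0.22 (adjusted p = 0.000711). Its annotated transcript includes 1326 bases of the neighbouring gene Exosc6 on the same strand.

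The promoters were searched because ATF4 is known to bind synthetase genes. Of the 40 genes 30 had a promoter sequence in RefSeq (build GRCm38.p6), the stretch from 250 bases before to 50 after the annotated start. The letters TGATGNAA, the core of an ATF4 element, were looked for on both strands. They occurred in 5 of the 30 promoters (16.7%), beside 2.80% of 8808 promoters of genes tested and 4.51% of 27025 promoters of all genes. The 5 were Aars, which held 2 matches, Gars, Iars, Tars and Yars, all of the cytosolic class. They are shown with the flanking bases in lower case and the match in capitals, which is the reverse complement of the element for all but Yars.
Yars, chr4:129189895-129189924: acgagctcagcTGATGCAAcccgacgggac
Gars, chr6:55037949-55038000: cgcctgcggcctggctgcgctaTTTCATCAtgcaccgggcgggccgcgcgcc
Aars, chr8:111033708-111033759: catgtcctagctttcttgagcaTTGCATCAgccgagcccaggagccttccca
Aars, chr8:111033840-111033869: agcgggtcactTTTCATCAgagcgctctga
Iars, chr13:49682126-49682155: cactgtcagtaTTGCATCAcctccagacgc
Tars, chr15:11399659-11399695: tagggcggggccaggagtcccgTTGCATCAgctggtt
All are read along the gene, which is the plus strand of the genome except for Tars. The sites of Gars and Tars and the first of Aars lie before the annotated start, and the others lie after it. A match to these letters describes the sequence and is not evidence that ATF4 binds there.

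As deposited, of the 5 genes with this element only Iars changed against control, and it fell. At 3 h of Pam3CSK4 the other 4 had log2 fold changes of 0.08 (Aars, adjusted p = 0.235), 0.08 (Gars, 0.208), 0.06 (Tars, 0.415) and 0.06 (Yars, 0.445). After the correction Aars and Tars were higher there and Iars lower. The E-box CACGTG, a palindrome bound by MYC and related factors, occurred in 5 of the 30 promoters (Aars, Ears2, Farsb, Iars and Tars, 16.7%), beside 12.0% of the genes tested. An interferon element matched in Qars alone (3.33%, beside 3.96%), and an NF-kB element in none of the 30, beside 0.590% of the genes tested.

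Lars2 (chr9:123366927-123462666, plus strand), the mitochondrial leucyl enzyme, had the largest fold change of the 40 genes and the widest spread between libraries. It was at 456 and 604 CPM in control, at 798 and 783 CPM after 1 h and at 535 and 812 CPM after 3 h of AmTARS. After Pam3CSK4 it was at 756 and 805 CPM at 1 h and at 737 and 857 CPM at 3 h. All treated libraries but 1 stood above both control libraries, and AmTARS 3 h replicate 1 lay between the control libraries. The log2 fold changes were 0.59 (adjusted p = 0.00136), 0.33 (0.0508), 0.57 (0.00114) and 0.60 (0.000714), each with an SE of 0.13. After the correction all 4 passed, at 0.68 (adjusted p = 0.000604), 0.40 (0.0246), 0.67 (0.000321) and 0.69 (8.8e-05). Without control replicate 2 the values at 1 h were 0.39 for AmTARS (adjusted p = 0.0567) and 0.37 for Pam3CSK4 (0.0515), and that of Pam3CSK4 at 3 h was 0.40 (0.0368).

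Another abundant transcript moved with Lars2 from library to library. Mir6236, a small RNA gene chosen after its values were seen, was at 137 and 196 CPM in control, at 357 and 346 CPM and then 225 and 322 CPM with AmTARS, and at 381, 360, 307 and 325 CPM with Pam3CSK4, with AmTARS 3 h replicate 1 again low. The ribosomal precursor Rn45s was at 1611 and 1367 CPM in control and at 1353 to 2014 CPM in treated libraries. It stood above both control libraries in both libraries of Pam3CSK4 at 1 h and overlapped control in the other groups. The Lars2 transcript shares 52 bases, on the same strand, with the gene model Gm15564, which was among the ribosomal sequences compared. Lars2 shares no stretch of 20 bases with Mir6236 or the mitochondrial ribosomal RNAs mt-Rnr1 and mt-Rnr2. Rn45s was not among the sequences compared with Lars2 in this way. The part of ribosomal or other shared sequence in the level of Lars2 was not tested.

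Of the other mitochondrial genes 7 changed in at least 1 group. Wars2 (tryptophanyl, chr3:99141068-99239186, plus strand) was at 6.31 and 5.47 CPM in control and at 4.12 and 4.36 CPM after 1 h and 3.91 and 4.79 CPM after 3 h of AmTARS, with no overlap. It fell by 0.39 (SE 0.11, adjusted p = 0.00779) and by 0.37 (0.0125). With Pam3CSK4 it was at 4.57 to 5.41 CPM, also below control, at -0.20 and -0.21 with no call. After the correction the AmTARS values were -0.25 and -0.25 (adjusted p of 0.134 and 0.115). Both calls were lost without control replicate 2 (0.108 and 0.146). That at 1 h was also lost without AmTARS 1 h replicate 2 (0.0573) and that at 3 h without AmTARS 3 h replicate 1 (0.193).

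Mars2 (methionyl), which has the longest transcript of the 40 at 11294 bases, was at 3.20 and 3.43 CPM in control and at 2.33 to 2.59 CPM in the 4 Pam3CSK4 libraries. It fell by 0.28 at 1 h (SE 0.11, adjusted p = 0.0374) and by 0.34 at 3 h (0.0124). After the correction neither passed, and the value at 1 h turned to 0.14 (0.387). The call at 1 h was lost without any 1 of the 4 libraries (adjusted p of 0.0738 to 0.169), and that at 3 h without control replicate 3 (0.083) or Pam3CSK4 3 h replicate 3 (0.0828).

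Cars2 (cysteinyl) rose with Pam3CSK4 at 1 h, from 11.3 and 9.66 CPM to 13.6 and 12.6 CPM, a log2 fold change of 0.30 (SE 0.10, adjusted p = 0.0136; 0.12 after the correction, 0.354). Its call was lost without control replicate 3 (0.178) or Pam3CSK4 1 h replicate 1 (0.111). Fars2 (phenylalanyl) rose in the same group by 0.20 (SE 0.07, adjusted p = 0.0306). Iars2 (isoleucyl) fell with Pam3CSK4 at 1 h by 0.17 (SE 0.06, 0.0171) and at 3 h by 0.15 (0.0352). After the correction neither Fars2 nor Iars2 passed, and the values of Iars2 turned to 0.07 and 0.03. Fars2 lost its call without control replicate 2 (adjusted p = 0.284), Pam3CSK4 1 h replicate 1 (0.138) or replicate 3 (0.0579). Iars2 lost its call at 1 h without control replicate 3 (0.129) or Pam3CSK4 1 h replicate 1 (0.187). At 3 h it lost its call without control replicate 2 (0.0575), control replicate 3 (0.204) or Pam3CSK4 3 h replicate 3 (0.163). On the opposite strand, Iars2 shares 2034 bases with Rab3gap2 and Cars2 shares 425 bases with Naxd. Pars2 (prolyl) passed in no group and was at 0.21 (SE 0.11, adjusted p = 0.14) for AmTARS at 1 h.

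Eef1e1 (chr13:38644207-38659058, minus strand) showed the largest change of the scaffold genes. Its product, also called AIMP3 or p18, docks the methionyl enzyme to the complex and is known as a factor of the DNA damage response. It was at 7.88 and 8.52 CPM in control, at 11.5 and 10.1 CPM after 1 h and at 9.68 and 9.23 CPM after 3 h of AmTARS. After Pam3CSK4 it was at 8.89 and 9.30 CPM at 1 h and at 11.1 and 11.9 CPM at 3 h. Every treated library lay above both control libraries, and the order of the time points was opposite for the ligands. It rose by 0.36 for AmTARS at 1 h (SE 0.09, adjusted p = 0.00262) and by 0.44 for Pam3CSK4 at 3 h (0.000274). The values of 0.19 for AmTARS at 3 h and 0.13 for Pam3CSK4 at 1 h did not pass (adjusted p of 0.0963 and 0.201). After the correction both calls stood, at 0.37 (0.00266) and 0.41 (0.000217). Without AmTARS 1 h replicate 2 the adjusted p of the former was 0.0529.

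Aimp1, which binds the arginyl enzyme and is also the precursor of a secreted cytokine, was at 29.3 and 33.1 CPM in control and at 36.29 and 35.99 CPM after 1 h of Pam3CSK4, a rise of 0.21 (SE 0.07, adjusted p = 0.0223). Its transcript of 1126 bases is the shortest of the 40, and after the correction the value was -0.03 (0.77). The call was lost without control replicate 2 (0.271), Pam3CSK4 1 h replicate 1 (0.0897) or replicate 3 (0.0577). Aimp2, the core of the complex, overlapped control in all 4 groups, at 11.2 to 13.4 CPM in the treated libraries and 11.1 and 12.0 CPM in control. Its values were 0.01, 0.05, 0.09 and 0.11 (SE 0.09, adjusted p of 0.348 to 0.916). Aimp2 shares 488 bases with Eif2ak1 on the opposite strand.

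The ligands were compared with each other at matched times, although the relation between their doses is unknown. At 1 h limma called 0 of 40 genes, beside 0.184% of all genes tested. At an unadjusted p below 0.05 there were 2 genes (Cars and Eef1e1) and voom on the recovered reads also called 0. The largest difference was that of Eef1e1, 0.23 higher with AmTARS (SE 0.09, 95% interval 0.05 to 0.40, adjusted p = 0.51). For Tars the interval of the difference was -0.08 to 0.16.

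At 3 h limma called 2 of 40 genes between the ligands (1 higher and 1 lower with AmTARS, 5%, beside 17.1% of all genes, 8.04% higher and 9.08% lower). Tars2 was 0.24 higher with AmTARS (SE 0.07, adjusted p = 0.0167; libraries at 24.0 and 23.0 against 21.0 and 18.6 CPM). Eef1e1 was lower with AmTARS, at -0.26 (SE 0.09, adjusted p = 0.044; 9.68 and 9.23 against 11.1 and 11.9 CPM). Both stood after the correction, at 0.23 (0.0103) and -0.22 (0.0448), where Farsb and Hars passed as well and 22% of all genes did. Without Pam3CSK4 3 h replicate 3 neither passed (adjusted p of 0.239 for Tars2 and 0.254 for Eef1e1), and without AmTARS 3 h replicate 1 neither did (0.147 and 0.109). Eef1e1 also lost its call without AmTARS 3 h replicate 3 (0.225) or Pam3CSK4 3 h replicate 2 (0.0503).

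From 1 h to 3 h, AmTARS changed 0 of 40 genes by limma, beside 2.38% of all genes. At an unadjusted p below 0.05 there was 1 gene (Lars), and voom called 0. Pam3CSK4 changed 5 of 40 over the same time (3 higher, 2 lower, 12.5% beside 31.5% of all genes, 16.2% higher and 15.3% lower). Aars rose by 0.20 (SE 0.05, adjusted p = 0.00801), from 97.5 and 103 to 112 and 119 CPM. Hars rose by 0.17 (0.016) and Eef1e1 by 0.31 (0.00936), while Tars2 fell by 0.27 (0.00422) and Tarsl2 by 0.32 (0.0436). All 5 also passed after the correction, where 9 genes did beside 33.3% of all genes. Without Pam3CSK4 3 h replicate 3 the count was 0, and without Pam3CSK4 1 h replicate 1 it was 2. Tarsl2 also lost its call without Pam3CSK4 1 h replicate 3 (adjusted p = 0.296).

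The change from 1 h to 3 h was tested for a difference between the ligands. Eef1e1 alone passed, at -0.48 (SE 0.12, 95% interval -0.73 to -0.23, adjusted p = 0.013), beside 9.2% of all genes. This call was lost with a replicate block (adjusted p = 0.109). It was also lost without AmTARS 1 h replicate 2 (0.092), AmTARS 3 h replicate 3 (0.0542), Pam3CSK4 1 h replicate 1 (0.0511) or Pam3CSK4 3 h replicate 3 (0.0573). Its level went down with AmTARS (-0.18, adjusted p = 0.428) and up with Pam3CSK4. Tars2 was at 0.29 (SE 0.10, adjusted p = 0.0723).

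Other genes of amino acid supply and of the response to uncharged tRNA are given by lists, to be read beside the shares of all genes given above (18.9%, 18.8%, 23.9% and 24.7% higher, and 19.8%, 17.9%, 24.8% and 24.2% lower). Of 13 measured genes for ATF4 and its output, 6 rose and 2 fell for AmTARS at 1 h, 9 and 0 for AmTARS at 3 h, 7 and 2 for Pam3CSK4 at 1 h and 9 and 3 for Pam3CSK4 at 3 h. After the correction the counts were 3 and 1, 4 and 0, 4 and 3, and 6 and 1. Atf4 itself was higher by 0.21 (adjusted p = 0.00343), 0.30 (0.000219), 0.31 (6.65e-05) and 0.57 (2.2e-08). After the correction it was at 0.07 (0.283), 0.17 (0.00509), 0.13 (0.0227) and 0.45 (9.46e-09). At 1 h of AmTARS its call was lost without control replicate 2 (0.0601) or AmTARS 1 h replicate 2 (0.0536). Cebpb, a transcription factor that inflammatory signals also raise, rose most, by 0.67, 0.66, 0.81 and 0.96 (0.38, 0.43, 0.46 and 0.74 after the correction, all past the threshold). Chac1 rose at 3 h by 0.59 with AmTARS and by 0.77 with Pam3CSK4, the former being 0.39 without AmTARS 3 h replicate 1 (adjusted p = 0.0598). In the same libraries Asns, the asparagine synthetase and a standard ATF4 target, passed for Pam3CSK4 at 3 h only (0.24, adjusted p = 0.0259; 0.17 after the correction, 0.0823). That call was lost without control replicate 2 (0.246) or Pam3CSK4 3 h replicate 3 (0.275). As deposited, the median log2 fold changes of the ATF4 list were 0.21, 0.23, 0.27 and 0.31 in the 4 treated groups. Those of the 40 genes, also as deposited, were 0.02, 0.03, 0.03 and 0.00. After the correction the medians of the ATF4 list fell to 0.03, 0.05, 0.02 and 0.18. In the same order, the corrected medians were -0.04, -0.03, -0.06 and -0.09 for the 8 complex enzymes. For the other 13 cytosolic genes they were 0.06, 0.02, 0.04 and 0.06. The difference between the ATF4 list and the synthetase genes was not tested.

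Of 16 stress sensors and parts of the eIF2 complex, 2 rose and 7 fell, 2 and 5, 3 and 7, and 5 and 5 in the same order of groups. After the correction the counts were 1 and 1, 4 and 3, 2 and 1, and 6 and 3. The phosphatase subunit Ppp1r15a rose by 0.35, 0.27, 0.61 and 0.68, also after the correction, and for AmTARS at 3 h lost its call without control replicate 3 (adjusted p = 0.0529). Eif2ak4, which encodes GCN2, fell by 0.27, 0.37, 0.28 and 0.52. After the correction it was at -0.09 (adjusted p = 0.442), -0.22 (0.0279), -0.07 (0.525) and -0.35 (0.000265), so both calls at 1 h were lost. These calls were lost as well without control replicate 2 (0.107 and 0.0809), that of AmTARS without its replicate 2 (0.132) and that of Pam3CSK4 without its replicate 1 (0.0807).

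Of 19 amino acid transporters 1 rose and 6 fell, 5 and 5, 1 and 8, and 4 and 9, and after the correction 1 and 2, 6 and 4, 1 and 2, and 5 and 6. Slc7a11, the cystine carrier, rose by 1.65 with Pam3CSK4 at 3 h, to 225 CPM from 70.4 CPM. Slc36a4 fell by 0.56, 0.49, 0.80 and 0.52, and by 0.31, 0.27, 0.50 and 0.33 after the correction, all past the threshold.

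Of 17 genes of amino acid synthesis 5 rose and 0 fell, 4 and 0, 5 and 1, and 5 and 4, and after the correction 2 and 0, 1 and 0, 1 and 0, and 3 and 6. Phgdh, the first enzyme of serine synthesis, was higher by 0.40, 0.27, 0.41 and 0.40. After the correction it was at 0.24 (adjusted p = 0.0483), 0.13 (0.287), 0.21 (0.0614) and 0.27 (0.00997). For AmTARS at 3 h its call was lost without AmTARS 3 h replicate 1 (0.18, adjusted p = 0.237) or control replicate 3 (0.108). Mthfd2 rose by 0.52 with Pam3CSK4 at 3 h.

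Of 15 partners of tRNA charging 4 rose and 1 fell, 2 and 1, 4 and 1, and 0 and 2, and after the correction 1 and 1, 1 and 1, 2 and 1, and 1 and 2. Sepsecs, which makes selenocysteine on its tRNA, was at -0.55, -0.30, -0.44 and -0.21, the last with no call (adjusted p = 0.102). After the correction it passed for AmTARS at 1 h alone (-0.35, adjusted p = 0.0264). For AmTARS at 3 h its call was lost without AmTARS 3 h replicate 1 (0.105) or replicate 3 (0.107) or control replicate 2 (0.192).

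Of 12 elongation factors 5 rose and 0 fell, 5 and 0, 5 and 1, and 4 and 2, and after the correction 4 and 0, 4 and 0, 6 and 1, and 5 and 2. Tsfm, an elongation factor of mitochondria, rose by 0.51, 0.35, 0.67 and 0.44, and after the correction was at 0.30, 0.16, 0.40 and 0.25, with no call for AmTARS at 3 h (adjusted p = 0.118). Of 38 genes for tRNA transcription and processing 7 rose and 8 fell, 7 and 7, 10 and 9, and 10 and 7, and after the correction 2 and 0, 1 and 1, 2 and 2, and 7 and 3. Bdp1, a part of the factor that recruits RNA polymerase III, fell by 0.41, 0.39 and 0.60 in the first 3 groups. After the correction it was at -0.08 (adjusted p = 0.499), -0.11 (0.314) and -0.23 (0.0179). Tsen34, a part of the tRNA splicing enzyme, rose by 0.48, 0.34, 0.51 and 0.40, and after the correction was at 0.24, 0.13, 0.21 and 0.18, with no call for AmTARS at 3 h (adjusted p = 0.103).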

How the data were processed

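Poly-A RNA was sequenced with a stranded kit, per the labels' protocols. The submitters' processing notes name STAR 2.5.1, R 3.3.0 and the build mm10. How reads were counted, and whether by strand, is not given in the sources used here. As their unit, the authors deposited log2(CPM + 1) values for 11617 genes in 10 libraries. With 1 factor per library, 100% of values gave whole reads within 0.1 read. Summed over listed genes, CPM came to 959639 and 960837 in control and to 998260 to 1037796 in treated libraries, so the scaling was not by plain read totals.

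A mean of 1 CPM or more was required (11407 genes, all 40 members among them). These were fitted with limma 3.58.1 in R 4.3.3, 1 mean per group, with an intensity trend (5 residual and 14.7 prior degrees of freedom). P-values were adjusted by Benjamini-Hochberg over all genes tested within each of 9 contrasts. Fold changes are on the log2(CPM + 1) scale and understate those of low genes. SE is the moderated standard error, from 1 spread per gene over all groups. With 2 libraries a group, per-library values are printed in place of a standard deviation.

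Transcript length and GC content came from GENCODE M21 (11014 genes, principal isoform). For the correction, each library's deviations were fitted on natural splines of both (5 degrees of freedom each) and the trend was removed. Promoters came from RefSeq. Shared sequence was counted from exact stretches of 50 bases between annotated transcripts. For Lars2 against Mir6236 and ribosomal genes other than Rn45s, stretches of 20 bases were used.

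The members and lists were chosen with earlier results of these data known. Named were the threonyl genes, the scaffold genes, the 10 cytosolic and 6 mitochondrial genes with the largest change against control, the 3 largest of each other list in each comparison against control, and Tnf and Cxcl2. Asns, Mir6236 and Rn45s were chosen after their values were seen, where the rule does not name them. Replicate numbers are not said to pair the samples, and the main fit did not use them. Alternatives were no filter, a mean of at least 5 CPM, pseudocounts of 0.25 and 5, median scaling, voom on the recovered reads, only the groups compared, the correction, a replicate block, and leaving out each library. The correction with the block, that with the longest transcript, and crossed numbers were chosen after seeing the data. Simulated data with known changes were used to test the fits. Python 3.11.15 and matplotlib 3.10.9 drew the plots.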

Additional observations from a re-analysis of the deposited data

Results flagged for a closer look

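The change of Eef1e1 from 1 h to 3 h differed between the ligands, at -0.48 on the log2 scale for AmTARS minus Pam3CSK4 (limma interaction term, adjusted p = 0.013). Both AmTARS libraries at 3 h lay below both at 1 h, and both Pam3CSK4 libraries at 3 h lay above both at 1 h. The call was lost with a replicate block (adjusted p = 0.109) and without AmTARS 1 h replicate 2 (0.092), AmTARS 3 h replicate 3 (0.0542), Pam3CSK4 1 h replicate 1 (0.0511) or Pam3CSK4 3 h replicate 3 (0.0573).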

How the results depend on the processing

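The number of the 40 genes that changed was 4, 3 and 4 for AmTARS at 1 h, AmTARS at 3 h and Pam3CSK4 at 1 h under the length and GC correction. The correction gave 4 for AmTARS against Pam3CSK4 at 3 h and 9 for Pam3CSK4 at 3 h against 1 h. With the longest transcript these 5 counts were 3, 2, 3, 4 and 8, and the difference of the time changes had 2. AmTARS against Pam3CSK4 at 3 h had 4 with a mean of at least 5 CPM or with voom, and 1 with only the groups compared, where Pam3CSK4 at 3 h against 1 h had 3.

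The labels do not say whether a shared replicate number pairs the samples. Correlations of deviations between groups with the same numbers were -0.18 to 0.20. With 2 libraries a group these cannot settle whether cultures or batches were shared. With the replicate block the counts were 2 for AmTARS at 3 h, 3 for Pam3CSK4 at 1 h, 1 for the ligands at 3 h and 0 for the difference of time changes. With the correction and the block they were 1, 4, 1 and 0, and 4 for AmTARS at 1 h. With crossed numbers the block gave 10 for AmTARS at 1 h.

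Leaving out 1 library at a time gave 2 to 8 for AmTARS at 1 h, 1 to 6 for AmTARS at 3 h, 4 to 7 for Pam3CSK4 at 1 h and 6 to 13 at 3 h. The ligands compared had 0 to 0 at 1 h and 0 to 2 at 3 h. AmTARS over time had 0 to 1, Pam3CSK4 over time 0 to 5 and the difference of time changes 0 to 2. Without AmTARS 1 h replicate 2, AmTARS at 1 h had 4, and without AmTARS 3 h replicate 1, AmTARS at 3 h had 3. Pam3CSK4 at 1 h had 7 without control replicate 3 or Pam3CSK4 1 h replicate 3 and 4 without Pam3CSK4 1 h replicate 1. The difference of time changes had 2 without Pam3CSK4 3 h replicate 2. AmTARS over time had 1 without AmTARS 3 h replicate 3.

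For Pam3CSK4 at 1 h the sign turned for Aimp1 (-0.0285), Farsa (-0.0478), Mars2 (0.14), Iars2 (0.0737) and Slc7a11 (0.106) under the correction, and for the same genes with the longest transcript (-0.0392, -0.0616, 0.142, 0.0674 and 0.104). With the block added it turned for Aimp1 (-0.0342), Aimp2 (-0.28), Farsa (-0.021), Mars2 (0.0519), Fars2 (-0.0239), Iars2 (0.0464) and Slc7a11 (0.021). In these 3 fits it also turned for Slc7a11 with AmTARS at 1 h (0.0468, 0.0449 and 0.0468) and for Iars2 with Pam3CSK4 at 3 h (0.0274, 0.0258 and 0.0274). The cause was not tested. Of 4581 single-gene values, 4259 stayed on their side of the threshold with no called value changing sign, and the call was lost in 234 and gained in 65 with the direction kept. Counting error is largest for the genes with the fewest reads, Mars2 and Tarsl2 (70 and 82 reads in their lowest library).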
